A study of Rattus norvegicus with 18 samples.

Results

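The ligated right soleus of sham operated rats was compared with the left soleus of the same rats. The comparison used 8 of the 18 arrays of the series, 1 array per limb from 4 of its 9 rats, and each array was assigned by the operation, the rat number and the side in its title. Male rats had a sham operation. The right femoral artery was ligated and resected 8 weeks later, and both soleus muscles were taken after another 24 hours. The other 5 rats had chronic kidney disease from 5/6 nephrectomy (SNX) and the same ligation. Their arrays entered the fit of the sham comparison through the shared estimate of the spread, so they affect its standard errors, p-values and calls. A standard error (SE) given here is therefore not the spread of the 4 sham differences alone. Their values are set beside those of the sham rats only where the responses are compared. The source field of the labels calls both limbs of every sham rat nonischemic and both limbs of every SNX rat ischemic. The design text says that the right limb was made ischemic, so the arrays are named here by side. The left limb of the same ligated animal was the control, and no rat without a ligation was analysed here. An operation on the left limb, the strain and the age are not given in the sources used here.

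Soleus is a postural muscle of the calf made mostly of slow-twitch fibres, which work aerobically and depend on a steady blood supply. When the femoral artery is closed, blood reaches the calf only through collateral vessels, and the muscle goes through injury, an early transcriptional response, entry of leukocytes, and later repair and vessel growth. Immediate early genes, which code for transcription factors of the AP-1 and EGR families, are switched on within minutes to hours of stress. Chemokines such as Ccl2 then draw monocytes into the tissue. In hypoxia the HIF factors raise genes of glycolysis and vessel growth, and oxidative and metal stress raise antioxidant genes and metallothioneins.

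All values are on a log2 scale, on which a difference of 1.0 is a 2.0-fold change. Array medians ran from 3.22 to 3.37, and a value near or below them is dim. The right array of rat 17 stood apart, with a mean correlation of 0.978 to the other 17 arrays, the lowest of the 18. The right array of SNX rat 49, which enters the shared spread, was nearly as low at 0.980. Each was the array closest to the other (0.9925). The mean of 14 macrophage markers was 9.53 on the right array of rat 17. It lay between 7.05 and 7.92 on the other right sham arrays and between 6.47 and 7.34 on the left ones. Calls are therefore given with and without rat 17. Slow fibre markers, the defining markers of soleus, were bright on every sham array, with list means between 11.32 (left, rat 17) and 14.19 (left, rat 13). Fast fibre markers were bright as well, with list means between 14.52 and 14.92, and Myh4, the myosin of fast IIb fibres, read between 14.70 and 15.58. Levels of different probe sets cannot be set against each other, so these values give no fibre share. Each array measures a whole muscle, so for every result more cells of a type and more RNA per cell cannot be told apart.

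In the fit of right against left with the rat as a block, 350 of 14217 genes passed an adjusted p of 0.05 (limma, Benjamini-Hochberg over all probe sets), which is 2.46%. Over probe sets, 559 of 31042 passed (1.8%), 310 of them higher (0.999%) and 249 lower (0.802%). Of the genes, 218 rose on the ligated side (1.53% of genes) and 132 fell (0.928%). The risen genes moved further. Their median difference was 0.85, and 87 of them rose by more than 1.0 and 25 by more than 2.0. The fallen genes had a median of -0.47, with 6 past -1.0 and none past -2.0. Genes past the threshold were selected on these same arrays, which favours a shared direction and separated groups. The direction was shared by 4 of 4 rats for 216 of the 218 risen and all 132 fallen genes. For 195 risen and 115 fallen genes every right array lay beyond every left array. Among all genes 4.92% had every right array above every left one, and 5.3% had every right array below. The median difference over all genes was -0.02, and 39.07% of them were higher on the right.

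**Figure D1:**
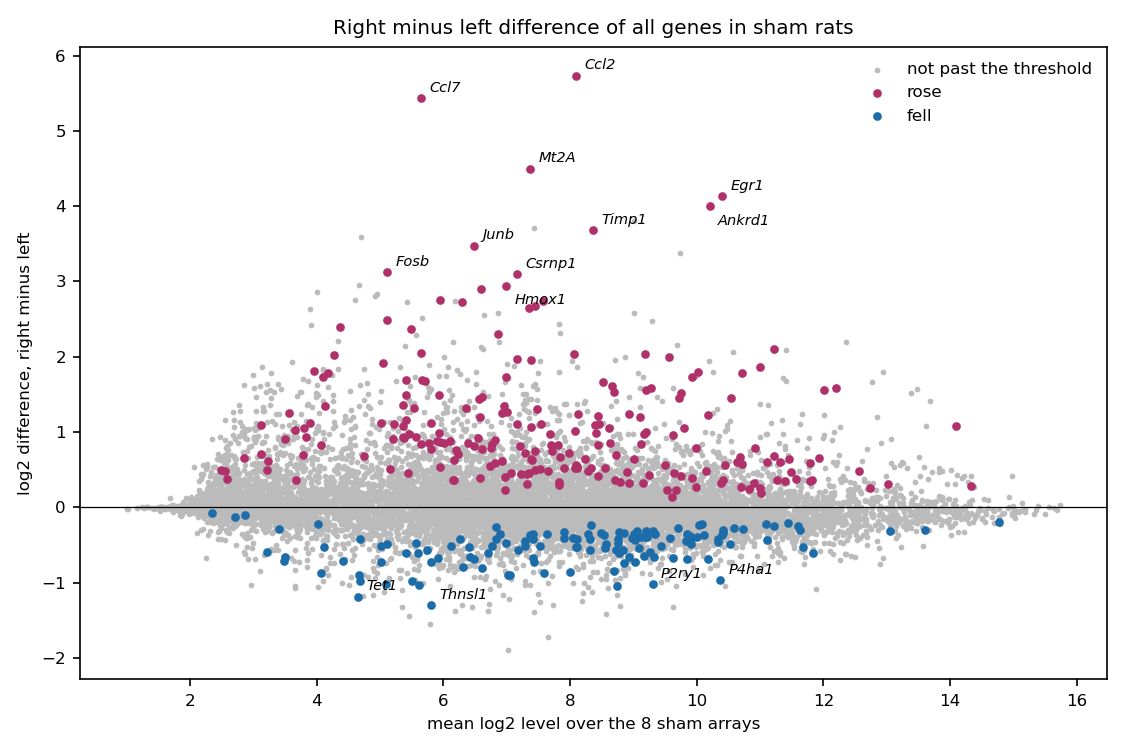
Each point is 1 of 14217 genes in the sham rats, with its mean log2 level over the 8 sham arrays on the x axis and its log2 difference, right minus left, on the y axis. Coloured points passed an adjusted p of 0.05 (218 rose, 132 fell); the largest rise was 5.73 (Ccl2) and the largest fall -1.30 (Thnsl1).

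The number of genes past the threshold changed with single animals. Without rat 17, 50 genes passed (0.352%), of which 41 rose and 9 fell. Of the 218 risen genes 33 still passed and all 218 kept their sign, and of the 132 fallen genes 8 still passed and all 132 kept theirs. The sign could hardly change, because 216 of the 218 and all 132 had shared it in 4 of 4 rats. Among the genes of the lists described below 59 passed with all rats, and 48 of these lost the call without rat 17. The 11 that kept it were Junb, Egr1, Ccl2, Has2, Tfpi2, Mt2A, P4ha1, Dnajb9, Ddit3, Inhbb and P2ry1. Leaving out rat 11 left 39 genes past the threshold, rat 13 left 65 and rat 15 left 185. The SNX arrays, which enter only through the shared spread, mattered as well, since 960 genes passed without SNX rat 49, 144 without rat 18, 186 without rat 37 and 202 without rat 12. Without the block 21 genes passed (0.148%), and with the rat as a fixed term 66 (0.464%). In a fit of the sham arrays alone with the rat as a fixed term none passed. That fit had 2569 genes at an unadjusted p under 0.05. The responses of the 4 animals differed in size. Over the risen genes the median difference was 0.98 in rat 11, 0.72 in rat 13, 0.64 in rat 15 and 0.93 in rat 17.

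The sequences of 4 promoters are shown first because the genes behind them, Egr1, Junb, Ccl7 and Mt2A, stand for the early transcription factors, the chemokines and the metal response among the largest rises. Each is the stretch of 250 bases before the RefSeq start of the gene in assembly GRCr8, written 5′ to 3′ on the strand of the gene, with capitals marking motif matches. Egr1 lies at chr18:26736828-26737077 on the plus strand, Junb at chr19:40080876-40081125 on the plus strand, Ccl7 at chr10:67513845-67514094 on the plus strand and Mt2A at chr19:10838709-10838958 on the minus strand.
Egr1: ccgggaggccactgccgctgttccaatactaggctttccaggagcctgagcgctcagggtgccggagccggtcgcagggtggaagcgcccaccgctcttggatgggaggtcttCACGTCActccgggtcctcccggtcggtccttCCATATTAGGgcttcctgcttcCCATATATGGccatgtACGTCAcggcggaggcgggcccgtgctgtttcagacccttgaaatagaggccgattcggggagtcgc
Junb: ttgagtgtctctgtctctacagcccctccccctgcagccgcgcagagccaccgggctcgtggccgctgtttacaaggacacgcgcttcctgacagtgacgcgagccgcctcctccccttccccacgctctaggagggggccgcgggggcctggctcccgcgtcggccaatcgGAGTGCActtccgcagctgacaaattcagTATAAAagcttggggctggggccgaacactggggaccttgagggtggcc
Ccl7: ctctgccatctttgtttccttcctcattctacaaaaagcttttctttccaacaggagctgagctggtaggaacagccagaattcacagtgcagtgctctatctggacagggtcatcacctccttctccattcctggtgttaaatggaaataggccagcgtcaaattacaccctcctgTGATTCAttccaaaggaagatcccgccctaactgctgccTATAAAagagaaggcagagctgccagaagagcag
Mt2A: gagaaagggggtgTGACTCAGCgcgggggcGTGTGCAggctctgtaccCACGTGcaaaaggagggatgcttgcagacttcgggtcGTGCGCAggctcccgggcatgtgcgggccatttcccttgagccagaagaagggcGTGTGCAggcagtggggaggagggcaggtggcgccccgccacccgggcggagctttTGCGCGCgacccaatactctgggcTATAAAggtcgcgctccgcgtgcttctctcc
The motifs searched on both strands were the CArG box bound by serum response factor and the NF-kB site (both by their usual consensus), the CRE core TGACGT, the AP-1 site TGANTCA, the metal response element TGCGCNC or TGCACNC, the hypoxia response core ACGTG, the antioxidant response element TGACNNNGC and the TATA box TATAAA. The Egr1 promoter held 2 CArG boxes, at 105 to 96 and 83 to 74 bases before the start, and 2 CRE cores, at 136 to 131 and 67 to 62, the first of which overlaps a hypoxia response core at 137 to 133. Junb held a metal response element at 78 to 72 and a TATA box at 49 to 44. Ccl7 held an AP-1 site at 73 to 67 and a TATA box at 34 to 29. Mt2A held 4 metal response elements, at 220 to 214, 165 to 159, 111 to 105 and 55 to 49. It also held an AP-1 site at 237 to 231 inside an antioxidant response element at 237 to 229, a hypoxia response core read on both strands between 202 and 197, and a TATA box at 31 to 26. Ccl2, Ankrd1, Hmox1, Csrnp1 and Myc have no entry in the table used.

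These motifs are short, and their share among all promoters of the same length sets the scale. Promoters were matched for 11700 genes, among them 177 of the 218 risen and 107 of the 132 fallen genes. A CArG box was found in 1.24% of all promoters, 1.69% of those of risen genes (Egr1, Egr2 and Brf1) and 0 of those of fallen genes. The AP-1 site was found in 4.83%, 8.47% and 2.8% of them, and the NF-kB site in 4.29%, 9.6% and 1.87%. For the antioxidant response element the shares were 12.3%, 18.1% and 9.35%, for the hypoxia response core 21.0%, 26.6% and 25.2%, and for the metal response element 29.8%, 28.8% and 28%. The CRE core was in 9.77%, 11.3% and 9.35%, and the TATA box in 8.06%, 11.3% and 9.35%. Risen genes with an AP-1 match besides Ccl7 and Mt2A included Tnfaip6, Tfpi2, Ddit3 and F2r, and risen genes with an NF-kB match included Tfpi2, Midn, Inhbb, Nfkbiz and Kdr. A match describes letters in a window and is no measure of binding, and the shares were not tested.

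Immediate early transcription factors were among the largest rises. Egr1, a zinc finger factor induced by growth signals and stress, read 9.32, 7.86, 8.85 and 7.28 on the left arrays of rats 11, 13, 15 and 17, and 12.63, 12.40, 12.10 and 12.74 on their right arrays. The 4 right arrays lay within a narrow band above every left array, while the left arrays differed among themselves, with rat 17 lowest. The rise was 4.14 ± 0.53 (log2 ± SE from the shared spread, n = 4 rats, limma adjusted p = 0.00293, and 0.0288 without rat 17). In the order of rats used throughout, Junb, an AP-1 subunit, read 4.51, 4.85, 5.43 and 4.20 on the left and 9.13, 7.55, 7.64 and 8.57 on the right. Rat 11 was highest on the right, the groups did not overlap, and the rise was 3.47 ± 0.36 (limma adjusted p = 0.0022, and 0.0177 without rat 17). Fosb, the AP-1 partner of the Jun proteins, read 4.37, 2.96, 3.99 and 2.88 on the left, either below or somewhat above the array medians, and 6.68, 7.01, 6.73 and 6.27 on the right. It rose by 3.12 ± 0.71 in all 4 rats, without overlap, and the array of rat 17 was the lowest of the right ones (limma adjusted p = 0.0388, and 0.158 without that rat).

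All 11 measured AP-1 genes were higher on the right, with a median difference of 1.27, and 4 rose (Junb, Fosb, Maff and Mafk). Over all genes 39.07% were higher, 1.53% rose and 0.928% fell, and these shares set the scale for every list below. Without rat 17, 9 of the 11 were higher, with a median of 1.09, and Junb alone passed. The small Maf proteins Maff and Mafk, which pair with other leucine zipper factors, rose by 2.73 ± 0.53 and 1.27 ± 0.19 (limma adjusted p = 0.0216 and 0.00877, and 0.0998 and 0.0539 without rat 17). Fos itself was already bright on the left, at 11.81, 11.33, 11.97 and 9.92. It read 13.82, 13.26, 13.18 and 13.56 on the right, above every left array, with a difference of 2.20 ± 0.69 that did not pass (limma adjusted p = 0.112). Jun, at 12.32 ± 0.41 on the left and 12.46 ± 0.34 on the right (SD, n = 4), was higher on the right in 2 of 4 rats. Of 15 EGR, NR4A, KLF and Myc genes, 9 were higher on the right and 3 rose, with a median of 0.86. Besides Egr1 these were Egr2, by 2.65 ± 0.58, and Myc, a transcription factor that promotes growth, by 2.67 ± 0.53 (limma adjusted p = 0.0355 and 0.0226, and 0.192 and 0.0953 without rat 17). The KLF factors Klf2, which endothelial shear stress induces, and Klf4 were lower on the right in 4 of 4 rats without passing (-0.66 ± 0.52 and -0.32 ± 0.50).

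Csrnp1, a nuclear transcription factor of the early response, read 4.46, 6.11, 7.03 and 4.84 on the left and 7.85, 8.93, 8.91 and 9.14 on the right. Left levels were spread wider than right ones, no value of the groups overlapped, and the rise was 3.10 ± 0.59 (limma adjusted p = 0.0206, and 0.12 without rat 17). Midn, whose product midnolin carries early transcription factors to the proteasome, read 9.69, 10.66, 10.73 and 9.56 on the left and 12.38, 12.25, 12.25 and 12.18 on the right. The right arrays agreed closely, all above the left ones, and the rise of 2.10 ± 0.27 also passed without rat 17 (limma adjusted p = 0.00307 and 0.028). Among 17 regulators that damp this response, 15 were higher and 2 rose (39.07% and 1.53% of all genes), with a median of 0.57. These were the growth arrest gene Gadd45b, by 1.96 ± 0.38 (limma adjusted p = 0.0216, and 0.123 without rat 17), and the antiproliferative gene Btg1, by 0.65 ± 0.13 (0.0278, and 0.149 without rat 17). The phosphatase gene Dusp1, another member, differed by -0.28 ± 0.21 and did not pass.

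**Figure D2:**
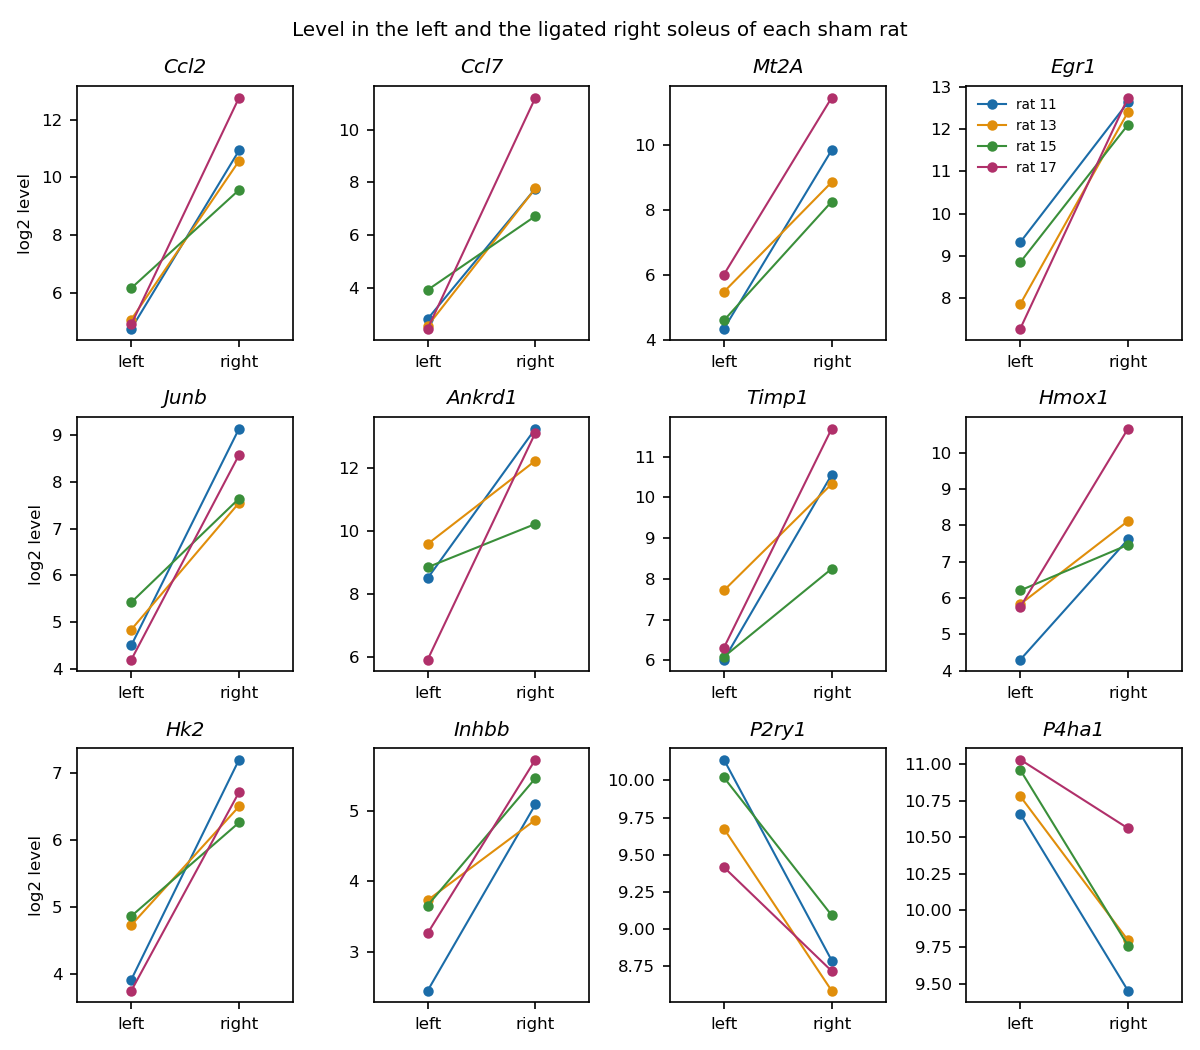
Log2 levels of 12 genes in the left and right soleus of each sham rat, with a line joining the limbs of 1 animal and a y axis of its own for each gene. For Ccl2, Ccl7 and Mt2A rat 17 has the highest right value, and in all 12 panels the 4 right values lie on 1 side of the 4 left values.

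Chemokines that draw monocytes had the largest rises of all. Ccl2, the main ligand of the monocyte receptor Ccr2, read 4.75, 5.07, 6.16 and 4.91 on the left arrays and 10.93, 10.57, 9.56 and 12.76 on the right ones. The groups lay far apart, with rat 17 highest and rat 15 lowest on the right, and the rise was 5.73 ± 0.67 (limma adjusted p = 0.0022, and 0.0195 without rat 17). Ccl7, a related monocyte chemokine, was dim on 3 of the left arrays, at 2.82, 2.56, 3.92 and 2.45, and read 7.77, 7.77, 6.72 and 11.21 on the right. Rats 11 and 13 had nearly the same right level, rat 15 less and rat 17 far more. The rise was 5.43 ± 0.94 (limma adjusted p = 0.013), and the call was lost without rat 17 (0.0694). Of 9 genes in this list 7 were higher and these 2 rose (39.07% and 1.53% of all genes), and the list median was 0.54, and 0.05 without rat 17. The receptors did not pass. Ccr2 was dim at 2.34 and 2.39, and Ccr1 read 2.94, 3.19, 2.98 and 7.04 on the right against 2.48 on average on the left, a difference of 1.56 ± 0.76 that rests mostly on rat 17. None of 15 CXC and CX3C chemokine genes and receptors passed, with a median of 0.11, and 0.00 without rat 17. Cxcl1, a neutrophil attractant, differed by 1.33 ± 0.59 (limma adjusted p = 0.235).

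With all 4 rats several cytokine receptors rose and no cytokine of the same list passed, while without rat 17 the receptors lost their calls and Il6 passed. Of 21 genes of the IL-1, IL-6 and TNF group, 15 were higher, 9 had every right array above every left one (4.92% of all genes did) and 5 rose (1.53% of all genes), with a median of 0.57. The 5 were the receptor genes Il4r, Tnfrsf1a, Il6r and Il6st and the signalling factor Stat3, which acts below the shared IL-6 receptor chain Il6st. Il4r, the IL-4 receptor chain, read 4.28, 4.56, 4.82 and 4.62 on the left and 6.52, 5.92, 5.74 and 6.85 on the right. No values overlapped, rats 11 and 17 were the highest on the right, and the rise was 1.68 ± 0.37 (limma adjusted p = 0.0361, and 0.174 without rat 17). Stat3 rose by 1.46 ± 0.31, Tnfrsf1a, the first TNF receptor, by 1.09 ± 0.21, Il6r by 0.75 ± 0.17 and Il6st by 0.56 ± 0.13. None of these 4 passed without rat 17 (limma adjusted p = 0.153, 0.118, 0.143 and 0.198). Among the cytokines, Il6 read 2.49, 2.38, 2.42 and 2.44 on the left and 2.95, 3.35, 2.76 and 6.79 on the right, dim on the left throughout. Its groups did not overlap, its difference of 1.53 ± 0.53 did not pass with 4 rats (limma adjusted p = 0.144), and it passed without rat 17 (0.028), whose right array was far above the other 3, themselves dim. Il1b and Tnf differed by 0.81 ± 0.27 and 0.03 ± 0.02 without passing.

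Nfkbiz, an inducible partner of NF-kB, was the 1 gene of 12 in the NF-kB list that rose, with a list median of 0.23. It read 3.35, 3.09, 3.33 and 3.39 on the left, at the array medians, and 4.87, 4.85, 4.39 and 6.17 on the right. The right levels lay above the left ones in every rat, with rat 17 highest, and the rise was 1.78 ± 0.43 (limma adjusted p = 0.0477, and 0.218 without rat 17). Of 10 leukocyte adhesion genes 9 were higher and 2 rose, with a median of 0.61. Pecam1, which joins endothelial cells, rose by 0.43 ± 0.09 (limma adjusted p = 0.0337, and 0.118 without rat 17). Selp, the P-selectin that catches rolling leukocytes, was dim at 3.08, 2.90, 2.89 and 2.98 on the left and 3.85, 3.46, 3.16 and 3.38 on the right, and rose by 0.50 ± 0.12 (limma adjusted p = 0.0424, and 0.138 without rat 17). The adhesion receptor Icam1 had every right array above every left one, with a difference of 1.34 ± 0.39 that did not pass (limma adjusted p = 0.0895).

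The metallothionein gene Mt2A, whose protein binds zinc and copper, read 4.35, 5.49, 4.61 and 6.02 on the left and 9.85, 8.87, 8.27 and 11.47 on the right. All right values lay above all left values, rat 17 again highest, and the rise was 4.50 ± 0.66 (limma adjusted p = 0.00721, and 0.0335 without rat 17). In its list of 11 metallothionein and zinc transport genes 8 were higher and 2 rose, with a median of 0.29, and 0.16 without rat 17. The other was the zinc importer Slc39a14, by 1.10 ± 0.26 (limma adjusted p = 0.045, and 0.227 without rat 17). The probe set for Mt1 was dim in both limbs (2.64 and 2.65). Hmox1, the haem oxygenase that breaks down free haem, read 4.30, 5.83, 6.21 and 5.75 on the left and 7.61, 8.12, 7.46 and 10.66 on the right. Its right level in rat 17 was well above the other 3, which still lay above every left array, and the rise of 2.94 ± 0.68 passed with all rats and not without rat 17 (limma adjusted p = 0.0403 and 0.178). Among 19 NRF2 targets and antioxidant enzymes 11 were higher and 3 rose (39.07% and 1.53% of all genes), with a median of 0.06. Besides Hmox1 these were Gclc, for the first enzyme of glutathione synthesis, by 1.32 ± 0.27, and Nfe2l2, which codes for NRF2, by 0.60 ± 0.10. Neither passed without rat 17 (limma adjusted p = 0.122 and 0.0679). The NRF2 target Nqo1 differed by 0.52 ± 0.36 and Srxn1 by 1.90 ± 0.57, and neither passed.

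Stress response genes of the endoplasmic reticulum and of amino acid shortage rose in part. Of 19 genes 15 were higher and 4 rose (39.07% and 1.53% of all genes), with a median of 0.25, and 0.07 without rat 17. Sesn2, a sestrin that restrains the growth kinase mTORC1, read 4.09, 4.34, 4.17 and 3.76 on the left and 7.11, 6.03, 5.38 and 5.51 on the right. The groups were apart, with rat 11 highest on the right, and the rise was 1.92 ± 0.33 (limma adjusted p = 0.0127, and 0.0539 without rat 17). Ddit3, the transcription factor CHOP, rose by 1.73 ± 0.29 and passed with and without rat 17 (limma adjusted p = 0.0127 and 0.044). Atf4, which controls both, rose by 0.25 ± 0.06, and the chaperone cofactor Dnajb9 by 0.28 ± 0.05. Dnajb9 passed without rat 17 as well and Atf4 did not (limma adjusted p = 0.0428 and 0.109). No gene of 16 heat shock proteins passed, and 11 were higher and 5 lower (median 0.16, and 0.10 without rat 17). Every right array lay above every left one for 3 of them and below for 1 (4.92% and 5.3% of all genes). The 3 included Dnajb1 and Hspa1a, with differences of 1.58 ± 0.56 and 1.35 ± 0.50. The list median was 0.68 in rat 11, -0.09 in rat 13, -0.23 in rat 15 and 0.68 in rat 17.

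Single hypoxia target genes rose or fell. Of 23 measured, 13 were higher, 2 rose and 1 fell (39.07%, 1.53% and 0.928% of all genes), with a median of 0.21. Without rat 17, 1 passed and the median was 0.16. Hk2, the hexokinase that traps glucose in muscle, read 3.91, 4.73, 4.86 and 3.74 on the left and 7.21, 6.51, 6.26 and 6.72 on the right. The groups did not overlap, and rat 11 was highest on the right. The rise was 2.36 ± 0.38 (limma adjusted p = 0.0103, and 0.063 without rat 17). The glucose transporter Slc2a3 rose by 0.85 ± 0.20 (limma adjusted p = 0.0474, and 0.235 without rat 17). P4ha1, a collagen prolyl hydroxylase that HIF is known to induce, read 10.66, 10.78, 10.96 and 11.03 on the left and 9.45, 9.79, 9.76 and 10.56 on the right. It was lower on the right in every rat, least in rat 17, and fell by 0.96 ± 0.20 (limma adjusted p = 0.0281, and 0.0379 without rat 17). The glucose transporter Slc2a1, Adm, which codes for the vasodilator adrenomedullin, and the oxygen-regulated factor Hif1a had every right array above every left one, and none of the 3 passed. Their differences were 1.66 ± 0.58, 1.83 ± 0.45 and 0.94 ± 0.24 (limma adjusted p = 0.15, 0.0533 and 0.0574). Over the list every right array lay above every left one for 5 genes and below for 1 (4.92% and 5.3% of all genes). The HIF targets Ldha, Bnip3 and Egln3 differed by -0.20 ± 0.11, -0.07 ± 0.12 and -0.31 ± 0.25 without passing.

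Of 35 angiogenic ligands and receptors 23 were higher and 3 rose, with a median of 0.12. Angpt2, a ligand that loosens vessels by opposing the Tie2 receptor, read 6.38, 6.35, 6.22 and 6.17 on the left and 7.61, 7.63, 7.89 and 7.35 on the right. Both groups were tight and lay apart, rat 15 being highest on the right, and the rise was 1.34 ± 0.23 (limma adjusted p = 0.0129, and 0.0604 without rat 17). Kdr, the main signalling receptor for VEGF, read 9.71, 9.65, 10.07 and 8.96 on the left and 10.56, 10.31, 10.64 and 10.01 on the right. It was higher on the right in every rat, but the right array of rat 17 lay below the left array of rat 15, so the groups overlapped. The rise was 0.79 ± 0.18 (limma adjusted p = 0.0387, and 0.09 without rat 17). Pdgfrb, the receptor that recruits pericytes, rose by 0.84 ± 0.18 (limma adjusted p = 0.0301, and 0.117 without rat 17). Vegfa differed by 0.81 ± 0.26, its relative Pgf by 1.46 ± 0.39, the vessel peptide Apln by 1.80 ± 0.50 and the Tie2 gene Tek by -0.62 ± 0.18, and none of the 4 passed (limma adjusted p = 0.115, 0.0661, 0.0789 and 0.0879). Efna1, an ephrin ligand of Eph receptors, is given because it had one of the lowest p-values. It read 6.11, 6.32, 6.71 and 5.60 on the left and 8.41, 8.36, 8.04 and 7.80 on the right, without overlap, and rose by 1.97 ± 0.25 (limma adjusted p = 0.00247, and 0.0207 without rat 17). A second probe set for Efna1 rose by 1.64 ± 0.22.

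Of the genes that muscle fibres raise on stretch or damage 2 rose, and the median of their list was higher in rats 11 and 17 than in rats 13 and 15. Ankrd1, an ankyrin repeat protein of the sarcomere, read 8.49, 9.58, 8.84 and 5.90 on the left and 13.25, 12.23, 10.22 and 13.12 on the right. The left array of rat 17 was far below the other left arrays, the right array of rat 15 was the lowest of its side, and the groups did not overlap. The rise was 4.0 ± 0.93 (limma adjusted p = 0.0421), and the call was lost without rat 17 (0.227). A second probe set for Ankrd1 rose by 4.59 ± 1.10 (limma adjusted p = 0.0472). Of 14 genes in this list 12 were higher, 6 without overlap (4.92% of all genes), and 2 rose, with a median of 0.78. Neither passed without rat 17. The list median was 1.32 in rat 11, 0.12 in rat 13, 0.04 in rat 15 and 1.20 in rat 17. Slow fibre markers were also higher on the right in rats 11 and 17, with list medians of 1.55 and 1.22, and not in rats 13 and 15, with -0.13 and -0.88. Their part in the result was not tested. Mustn1, a nuclear protein of muscle and bone repair, rose by 1.08 ± 0.23 (limma adjusted p = 0.0298, and 0.169 without rat 17). Its list mates Xirp1, Flnc and Csrp3, which bind actin or the Z-disc, had every right array above every left one and did not pass, with differences of 1.80 ± 0.56, 1.20 ± 0.33 and 1.41 ± 0.52.

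Single genes of protein breakdown rose, and 1.53% of all genes did. The autophagy list had 3 risen genes of 20 with a median of -0.05, and the FoxO and ubiquitin ligase list 1 of 15 with a median of 0.06. Gabarapl1, an ATG8 protein of the autophagosome membrane, read 7.07, 7.64, 7.92 and 7.40 on the left and 8.93, 9.01, 8.47 and 8.56 on the right. No left array reached the lowest right one, and the rise was 1.23 ± 0.21 (limma adjusted p = 0.0127, and 0.0609 without rat 17). A second probe set for Gabarapl1 differed by 1.11 ± 0.34 and did not pass (limma adjusted p = 0.1). The cargo receptor Sqstm1 rose by 0.36 ± 0.07 and the lysosomal membrane gene Lamp2 by 0.61 ± 0.14, and neither passed without rat 17 (limma adjusted p = 0.117 and 0.124). Cblb, a ubiquitin ligase that acts on insulin signalling in unloaded muscle, read 7.08, 7.56, 7.41 and 7.10 on the left and 8.11, 8.15, 7.85 and 8.36 on the right. It rose by 0.83 ± 0.18 in 4 of 4 rats without overlap (limma adjusted p = 0.0329, and 0.189 without rat 17). The ligases best known for atrophy, Fbxo32 and Trim63, differed by 0.33 ± 0.33 and 0.52 ± 0.23 and did not pass. Of 25 proteasome subunits 1 rose, Psmb2, which read 10.87, 10.89, 10.89 and 11.02 on the left and 11.11, 11.07, 11.05 and 11.20 on the right, a rise of 0.19 ± 0.04 (limma adjusted p = 0.0435, and 0.109 without rat 17).

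Protease inhibitors were among the matrix genes that rose. Timp1, which blocks metalloproteinases, read 6.01, 7.71, 6.08 and 6.31 on the left and 10.56, 10.33, 8.25 and 11.69 on the right. The right arrays lay above the left ones, least in rat 15, and the rise was 3.68 ± 0.85 (limma adjusted p = 0.042, and 0.213 without rat 17). Of 17 genes in its list 13 were higher and 2 rose (39.07% and 1.53% of all genes), with a median of 0.41, and 0.21 without rat 17. The other was the aggrecan-cleaving protease Adamts4, by 2.04 ± 0.35 (limma adjusted p = 0.0127, and 0.0506 without rat 17). Tfpi2, an inhibitor of serine proteases such as plasmin, read 4.77, 4.21, 5.36 and 5.39 on the left and 7.60, 6.74, 7.39 and 8.93 on the right. Its groups were apart, with rat 17 highest on the right, and it rose by 2.73 ± 0.42 and passed with and without rat 17 (limma adjusted p = 0.00894 and 0.0419). Within 15 coagulation and fibrinolysis genes 11 were higher and 3 rose (39.07% and 1.53% of all genes), with a median of 0.29. Besides Tfpi2 these were the thrombin receptor F2r, by 1.53 ± 0.26, and Fgl2, which can activate prothrombin, by 1.58 ± 0.32. Neither of these passed without rat 17 (limma adjusted p = 0.0734 and 0.15). Tnfaip6, which ties hyaluronan to other matrix proteins in inflamed tissue, read 4.61, 4.41, 4.68 and 4.59 on the left and 6.55, 7.25, 7.06 and 8.45 on the right. The left arrays hardly differed, every right array lay far above them, and the rise was 2.76 ± 0.44 (limma adjusted p = 0.0103, and 0.0609 without rat 17). The hyaluronan synthase Has2 was dim (2.52 and 3.18) and rose by 0.66 ± 0.15 (limma adjusted p = 0.0388, and 0.0252 without rat 17). Tnfaip6 and Has2 were the 2 risen genes of 7 in the hyaluronan list, which split, with 4 higher and 3 lower (median 0.66). Every right array lay above every left one for 3 of the 7 and below for 2 (4.92% and 5.3% of all genes). None of 21 collagens and fibrous matrix genes passed, although 20 were higher, with a median of 0.30. Spp1, which codes for osteopontin, had the widest spread of them, with 7.30, 8.60, 7.14 and 14.10 on the right against 6.78, 7.82, 4.09 and 3.59 on the left. Rat 17 was far above the others, and the difference of 3.71 ± 1.43 did not pass.

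Signals of the TGF-beta family changed at single points. Inhbb, the beta B subunit from which activin B is made, read 2.44, 3.73, 3.65 and 3.26 on the left and 5.09, 4.87, 5.46 and 5.73 on the right. No values overlapped, and the rise of 2.02 ± 0.25 passed with and without rat 17 (limma adjusted p = 0.00224 and 0.0253). Of 18 genes of the IGF, insulin and activin axis 13 were higher and 2 rose, with a median of 0.20. The other was Igfbp3, the main IGF carrier of serum, by 1.52 ± 0.27 (limma adjusted p = 0.0152, and 0.0619 without rat 17), while Igf1 differed by -0.09 ± 0.28 and the activin antagonist Fst by 0.04 ± 0.27. Tgif1, a homeobox repressor of SMAD signalling, read 7.78, 8.09, 8.27 and 8.54 on the left and 10.28, 10.07, 9.20 and 11.30 on the right. The right arrays ran from rat 15, the lowest, to rat 17, the highest, all above the left ones, and the rise was 2.04 ± 0.44 (limma adjusted p = 0.0316, and 0.141 without rat 17). It was the 1 risen gene of 15 in the TGF-beta list, which had a median of 0.08, and 0.14 without rat 17. Rab20, a small GTPase of endosomes, and Bri3, a membrane protein gene, had among the lowest p-values. Rab20 read 7.28, 7.18, 7.59 and 7.53 on the left and 8.07, 8.17, 8.23 and 8.42 on the right. Bri3 read 8.63, 8.63, 8.72 and 8.77 on the left and 9.40, 9.22, 9.21 and 9.49 on the right. Both were tight within each side and did not overlap, and they rose by 0.83 ± 0.10 and 0.64 ± 0.08 (limma adjusted p = 0.00231 and 0.0022, and 0.0207 and 0.0195 without rat 17).

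**Figure D3:**
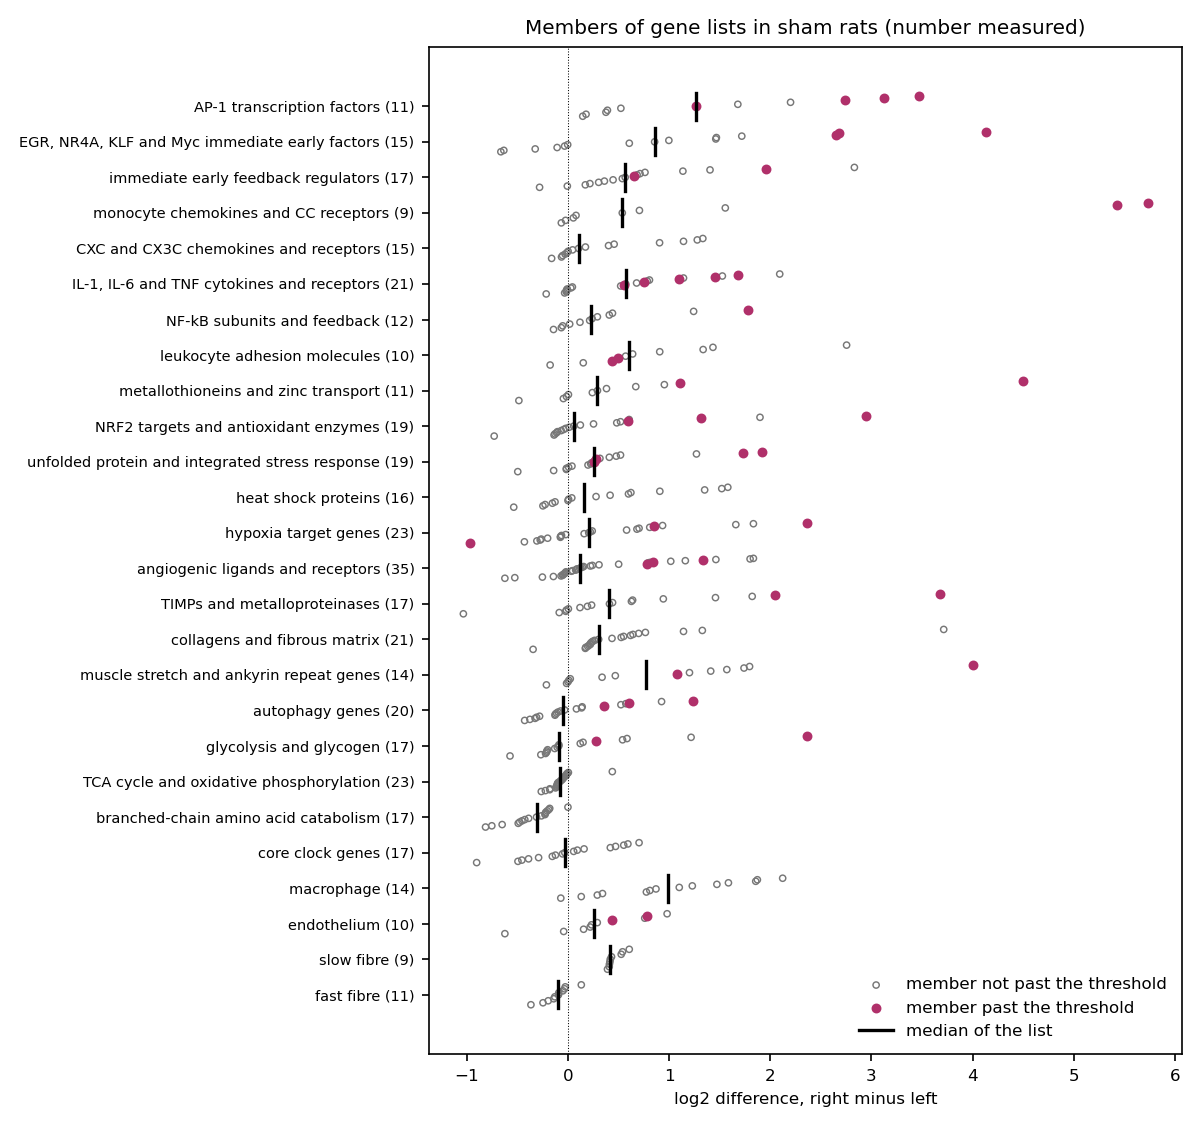
Log2 difference, right minus left, of every measured member of 26 gene lists in the sham rats, 1 point per gene, with filled points for genes past an adjusted p of 0.05 and a black bar at the list median. The AP-1 list lies wholly above 0 with a median of 1.27, and the list of branched-chain amino acid catabolism lies almost wholly below 0 with a median of -0.31 and no filled point.

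The largest falls were smaller than the rises and fell on genes of many kinds. Thnsl1, a threonine synthase-like gene, read 6.29, 6.48, 6.80 and 6.28 on the left and 5.04, 5.29, 5.76 and 4.55 on the right. It was lower on the right in every rat, most in rat 17, without overlap, and fell by 1.30 ± 0.28 (limma adjusted p = 0.0316, and 0.147 without rat 17). Tet1, an enzyme that oxidises 5-methylcytosine in DNA, read 5.44, 5.56, 5.20 and 4.81 on the left and 3.96, 3.97, 4.48 and 3.85 on the right. No values overlapped, and it fell by 1.19 ± 0.25 (limma adjusted p = 0.0314, and 0.09 without rat 17). It was the 1 of 12 genes for methylcytosine and chromatin enzymes past the threshold, in a list with a median of 0.24, and 0.08 without rat 17, and its relative Tet2 differed by 0.30 ± 0.19. P2ry1, a receptor for extracellular ADP, read 10.14, 9.68, 10.02 and 9.42 on the left and 8.79, 8.58, 9.09 and 8.72 on the right. It lay lower on the right in each rat, without overlap, and fell by 1.02 ± 0.17, which passed with and without rat 17 (limma adjusted p = 0.0127 and 0.0378). It alone passed among 16 purine receptors and ectonucleotidases (median 0.10, and 0.06 without rat 17).

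Among regulators of muscle metabolism and identity, Prkaa2 and Mef2c fell. Prkaa2, the muscle form of the catalytic AMPK subunit, read 12.10, 12.09, 12.34 and 12.05 on the left and 11.40, 11.50, 11.85 and 11.41 on the right. Rat 15 was the highest on both sides, the groups did not overlap, and the fall was 0.61 ± 0.14 (limma adjusted p = 0.0361, and 0.148 without rat 17). Mef2c, a transcription factor of muscle genes, read 13.77, 13.67, 13.78 and 13.79 on the left and 13.30, 13.47, 13.58 and 13.44 on the right. The groups did not overlap, and it fell by 0.31 ± 0.07 (limma adjusted p = 0.0389, and 0.17 without rat 17). A second, equally bright probe set for Mef2c (13.62 and 13.42) differed by -0.20 ± 0.14 and did not pass (limma adjusted p = 0.413). Prkaa2 and Mef2c were each the 1 gene past the threshold in their list, of 15 mitochondrial biogenesis regulators (median -0.03, and -0.01 without rat 17) and of 10 myogenic factors and embryonic myosins (median 0.05, and 0.01 without rat 17). Over all genes 0.928% fell, and these single calls describe the genes and not their lists. The other large falls were C2cd2, by 1.05 ± 0.25, Det1, part of a ubiquitin ligase complex, by 1.03 ± 0.22, the pseudogene Znf16l-ps1 by 1.02 ± 0.20, the SET domain methyltransferase gene Setmar by 0.98 ± 0.21, the sialic acid esterase gene Siae by 0.97 ± 0.22 and C6h14orf28 by 0.91 ± 0.21. Their limma adjusted p-values lay between 0.0226 and 0.0427, all 6 were lower on the right in 4 of 4 rats without overlap, and none passed without rat 17, where they lay between 0.0619 and 0.2.

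Energy metabolism and contractile genes showed few or no calls. None of 23 genes of the TCA cycle and oxidative phosphorylation passed, and 21 of them were lower, with a median of -0.08. None of 22 genes of fatty acid uptake and oxidation passed, with 11 lower and a median of -0.00. Among 17 genes of glycolysis and glycogen 2 rose, Hk2 and Ugp2, which makes UDP-glucose for glycogen, by 0.28 ± 0.06 (limma adjusted p = 0.0391, and 0.0505 without rat 17), and the list median was -0.09. Genes that break down leucine, isoleucine and valine leaned one way without a call: 16 of 17 were lower and 6 had every right array below every left one, against 5.3% of all genes, with a median of -0.31 and -0.27 without rat 17. Ppm1k, the phosphatase that switches on the pathway, read 8.62, 8.70, 8.58 and 8.45 on the left and 7.95, 7.74, 8.18 and 7.47 on the right. Its right arrays all lay below the left ones, and the difference of -0.75 ± 0.23 did not pass (limma adjusted p = 0.108). Bcat2, for the first enzyme of the pathway, differed by -0.65 ± 0.31 without overlap (limma adjusted p = 0.262). Neither the 17 core clock genes (median -0.03, and -0.01 without rat 17) nor the 13 glucocorticoid response genes (median -0.11, and -0.01 without rat 17) held a called member. The same was so for 20 interferon response genes, of which 16 were higher (median 0.40) and 17 without rat 17 (median 0.29). Of 19 cell cycle genes, none called, 13 were higher with a median of 0.18, which rested on rat 17. Without that rat 7 were higher and the median was -0.02. Of 13 acetylcholine receptor and denervation genes, none called, 8 were higher with a median of 0.19, and without rat 17, 6 were higher and the median was -0.01.

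Markers of other cell types were read beside these groups. Of 14 macrophage markers 13 were higher on the right and 4 had every right array above every left one (4.92% of all genes), with a median of 0.99 and 0.68 without rat 17, and none passed. Cd68 was dim on all 4 left arrays, at 2.95, 2.95, 2.93 and 2.96, and read 2.96, 3.55, 3.27 and 7.91 on the right, so its difference rests on rat 17. Cd14, the monocyte co-receptor for endotoxin, read 4.89, 6.02, 5.48 and 5.72 on the left and 6.80, 7.25, 6.58 and 9.97 on the right. It was above the left range in every rat, with a difference of 2.12 ± 0.68 (limma adjusted p = 0.116). Adgre1, another macrophage marker, differed by -0.07 ± 0.33. The 8 neutrophil markers had a median of 0.25, and 0.04 without rat 17, and their mean on the right array of rat 17 was 4.55 against 2.90 to 3.25 on the other right arrays. The share of macrophage and neutrophil RNA in the rises of chemokine, cytokine and matrix genes was not tested. Of the 11 T and NK cell markers 8 lay below the array medians, and the list median was -0.01.

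Markers of the vessel wall and of connective tissue changed singly. In the endothelium 8 of 10 markers were higher and 2 rose, Kdr and Pecam1, with a median of 0.26. Without rat 17 neither passed and the median was 0.43. Pericyte and smooth muscle markers split, with 2 of 11 risen, 1 fallen (1.53% and 0.928% of all genes) and a median of -0.04, which turned to 0.16 without rat 17. Without that rat none of these called markers passed, and 1 other marker of the list did. Kcnj8, the Kir6.1 channel of pericytes, read 3.46, 3.46, 3.46 and 3.09 on the left, near the array medians, and 4.05, 4.51, 4.38 and 4.29 on the right. It rose by 0.94 ± 0.17 without overlap (limma adjusted p = 0.0149, and 0.0872 without rat 17). Rgs5, a pericyte regulator of G protein signals, read 9.19, 9.33, 9.51 and 8.82 on the left and 8.49, 8.54, 8.72 and 8.14 on the right. It was lower on the right in each rat without overlap, and fell by 0.74 ± 0.16 (limma adjusted p = 0.0338, and 0.0817 without rat 17). Of 10 fibroblast markers 1 rose (median 0.22, and 0.11 without rat 17). It was the globin gene Cygb, which read 5.35, 5.93, 5.31 and 5.44 on the left and 6.24, 6.73, 6.23 and 6.28 on the right and rose by 0.86 ± 0.17 (limma adjusted p = 0.0216, and 0.09 without rat 17). All 7 adipocyte markers were lower with a median of -0.20, which turned to 0.38 without rat 17. The 7 Schwann cell markers had a median of 0.19, and without rat 17 3 of the 7 were higher and the median was -0.00. In rats 11, 13, 15 and 17 their medians were -1.24, 0.01, 1.63 and 0.68.

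Fibre markers differed between animals. All 9 slow fibre markers had a higher mean on the right, with differences from 0.39 to 0.61 and a median of 0.42 (0.17 without rat 17), and none passed. The list means were 12.63, 14.19, 13.84 and 11.32 on the left and 14.15, 14.06, 12.98 and 12.63 on the right, so the right limb was higher in rats 11 and 17 and lower in rats 13 and 15. The slow troponin gene Tnni1 read 12.29, 14.19, 13.69 and 10.95 on the left and 13.91, 13.97, 12.81 and 12.12 on the right, and its groups overlapped. Of 11 fast fibre markers 10 had a lower mean on the right, with a median of -0.09. Of 3 erythroid markers 2 were higher, with a median of 0.21, and 0.55 without rat 17. The part of fibre content in the other differences was not tested.

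The same comparison in the 5 SNX rats, which share no array with the sham rats, called 70 genes (0.492%). Both comparisons came from 1 fit with a shared estimate of the spread, so their calls are not independent. Of the genes that rose in sham rats 211 of 218 were also higher on the right in SNX rats and 31 passed there. Of those that fell 128 of 132 were also lower and 8 passed. Over all genes 55.17% were lower on the right in SNX rats. A difference between sham and SNX responses was tested as such, and no gene passed (lowest limma adjusted p = 0.976). An unadjusted p under 0.05 was found for 469 genes, which is 3.3%. With no true difference a share of 0.05 would on average fall there, so this count shows no excess. Ccl2 rose by 4.87 ± 0.60 in SNX rats and Hk2 by 2.89 ± 0.34, close to or above their sham values. Ankrd1 rose by 5.69 ± 0.83 there, and the sham minus SNX difference was -1.69 ± 1.25 (SE). Values that were smaller in SNX rats included Rab20, at 0.13 ± 0.09, Inhbb, at 0.75 ± 0.22, Efna1, at 0.94 ± 0.22, and P4ha1, at -0.16 ± 0.18. Their sham minus SNX differences were 0.70 ± 0.14, 1.27 ± 0.33, 1.03 ± 0.33 and -0.80 ± 0.27, with unadjusted limma p of 0.000129, 0.00156, 0.00759 and 0.00916 and an adjusted p of 0.976 for each. All were named for their sham values and picked here for a low unadjusted p. Their smaller SNX values are therefore no test of a difference. The median difference of the slow fibre list was 0.42 in sham and -0.33 in SNX rats, where all 9 markers were lower on the right.

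**Figure D4:**
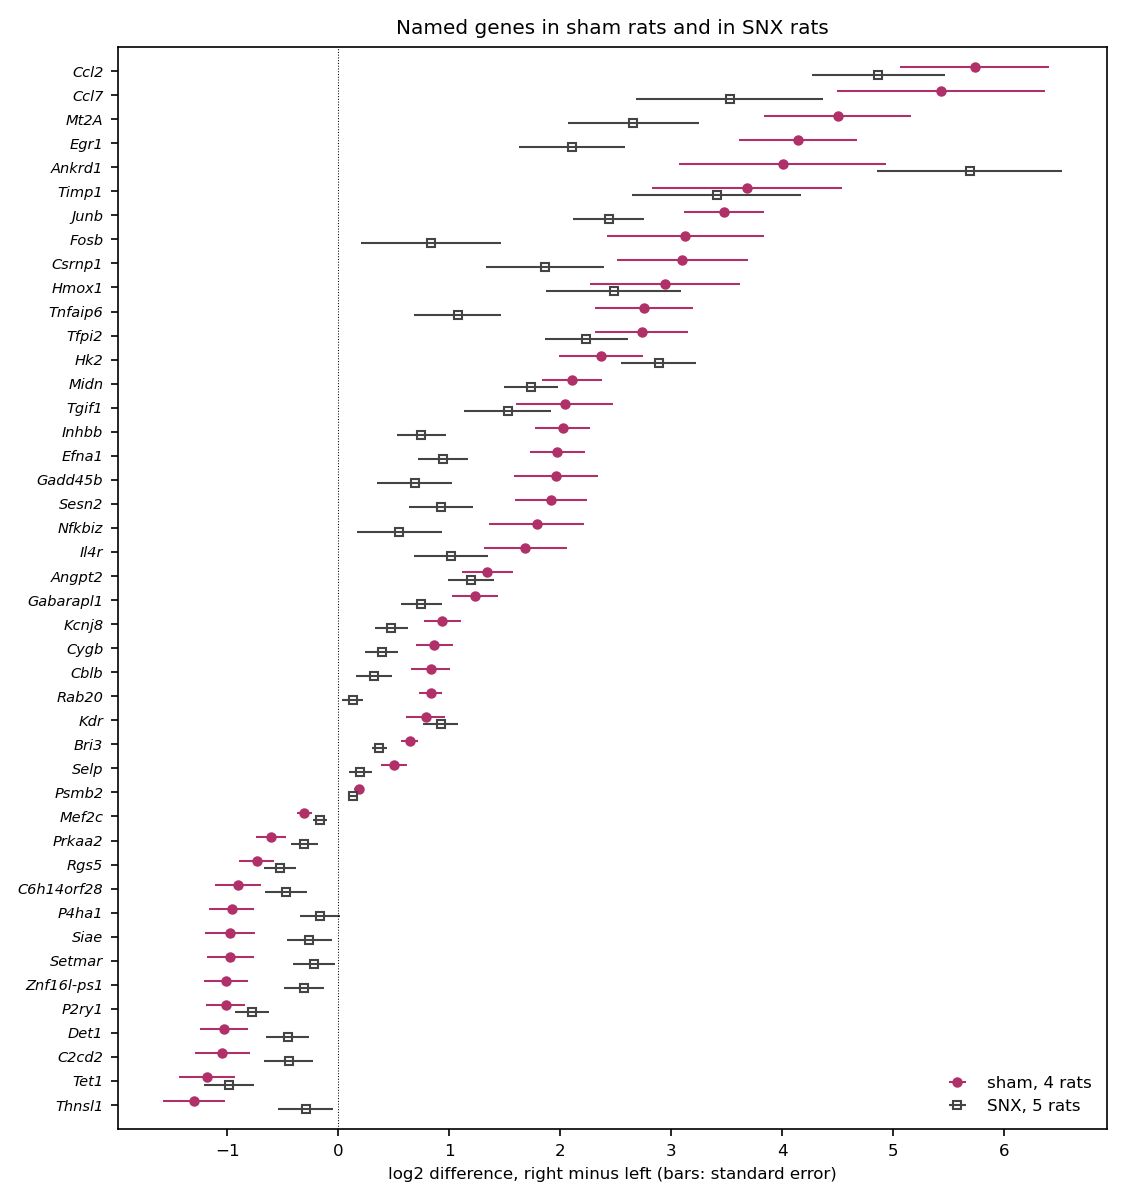
Log2 difference, right minus left, with its standard error, for the 44 named genes in 4 sham rats (filled circles) and 5 SNX rats (open squares). All 44 genes point the same way in both kinds of rat, and Rab20, at 0.83 in sham and 0.13 in SNX rats, had the lowest unadjusted p of a difference among those named.

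Of the 44 named genes, 31 rose and 13 fell. For 43 the left and right arrays did not overlap, and Kdr was the exception. The difference was smallest in rat 15 for 30 of the 44. Among the 31 risen genes it was largest in rat 17 for 15 and in rat 11 for 12. Without rat 17, 12 of the 44 passed: Ccl2, Mt2A, Egr1, Junb, Tfpi2, Midn, Inhbb, Efna1, Rab20, Bri3, P4ha1 and P2ry1. Other probe sets existed for 14 of the genes, 17 in all, of which 11 had the same sign and 3 passed, those of Ankrd1, Efna1 and C2cd2. The 6 of opposite sign, for Tnfaip6, Sesn2, Nfkbiz, Rab20, Kdr and Selp, were dim in both limbs. Those of the same sign that did not pass included bright sets of Mef2c and Gabarapl1.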

How the data were processed

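Soleus RNA was measured on 18 Affymetrix rat arrays, each with biotin-labelled cRNA from 2 micrograms of total RNA per the labels. The matrix deposited by the authors holds normalized log2 values of 31099 probe sets, from 0.80 to 15.90. RMA, GCRMA and Partek are named per the submitters' processing notes, and the sources used here do not say which produced these values. They differ in background correction, which affects dim probe sets most. Arrays have no read depth, and their number limits the precision; the median standard error of a difference was 0.105 over genes.

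Leaving out 57 control probe sets, 31042 were tested. Of these 20826 list 1 gene, 436 several and 9780 none, and 20758 were matched by Entrez ID to RefSeq symbols (GRCr8). The probe set with the highest mean over 18 arrays stood for each of 14217 genes.

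Group means were fitted over all 18 arrays with limma 3.58.1 (lmFit, eBayes) in R 4.3.3, with files read by data.table (version 1.17.8). Both limbs belong to 1 animal, so the rat number entered as a random block (duplicateCorrelation, consensus correlation 0.297). As a check of the pairing, deviations of the limbs of 1 rat from their group means correlated at 0.13, 0.45, 0.04 and 0.27 in sham rats 11, 13, 15 and 17. P-values are two-sided, Benjamini-Hochberg adjusted over all probe sets, with a threshold of 0.05. Alternatives were the fit with no replicate block, a fixed rat term, other normalizations, filters, variance models and probe set rules, and each rat left out.

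The members, the 51 gene lists (709 of 794 genes measured) and the tests were chosen with earlier results of these data known. Named genes are, among those past the threshold with 1 sign in 4 of 4 sham rats and a higher group mean above 3.37, the 10 largest rises, the 10 largest falls, the 5 lowest adjusted p not yet named, and the largest risen and fallen member of each list, leaving out symbols starting with LOC, RGD or AABR. Other list members were named for their role after their values were seen. Promoters are RefSeq sequences of GRCr8.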

Additional observations from a re-analysis of the deposited data

Results flagged for a closer look

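In 9 of 114 groups of 4 sham arrays, for the named genes and the marker list means, 1 array lay apart from the other 3 by Dixon's criterion, which chance meets in about 1 in 20 groups. Rat 17 held 5 of the 9. Its left array read 3.09 for Kcnj8 against 3.46 to 3.47 in the other rats, 11.02 for Psmb2 against 10.87 to 10.89, and 6.40 for the mean of the erythroid markers against 5.63 to 5.75. Its right array read 3.73 for Znf16l-ps1 against 4.74 to 4.94, and 3.10 for the mean of the T and NK cell markers against 2.49 to 2.56. Rat 13 held 3, with 6.73 for Cygb on the right against 6.23 to 6.28, 13.67 for Mef2c on the left against 13.77 to 13.79, and 5.65 for Siae on the left against 6.09 to 6.16. The left array of rat 11 had a mean of 2.18 for the B cell markers against 2.13 to 2.14.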

How the results depend on the processing

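With the rat as a random block, 559 probe sets, 350 genes and all 44 named genes passed. With no replicate block, 46 probe sets, 21 genes and 11 named genes passed, and with the replicate block as a fixed term 117, 66 and 13. Fitted to the sham arrays alone, the random block gave 110, 58 and 14 and the fixed term 0, 0 and 0, where 4460 probe sets had an unadjusted limma p under 0.05 and the lowest adjusted p was 0.106. Quantile normalization gave 238, 147 and 21 and centring each array on its median 291, 174 and 28. Array weights gave 1451 probe sets and 858 genes, and keeping the brighter part of the probe sets gave 859 and 528. Leaving out 1 rat gave 72 to 1567 probe sets, 39 to 960 genes and 9 to 44 named genes, the lowest without rat 11 and the highest without SNX rat 49. Single values were 118 probe sets and 12 named genes without rat 13, 313 and 24 without rat 15, 91 and 12 without rat 17, 329 and 29 without rat 12, 242 and 24 without rat 18, and 302 and 25 without rat 37. The trended and robust variance fits, the mean of a gene's probe sets, the probe set of largest variance and leaving out rat 20 kept the gene count between 317 and 418. The difference of the responses was at 0 probe sets with all rats (953 at an unadjusted limma p under 0.05) and in 16 alternatives (437 to 1718). Without rat 11, 2 passed, C1qtnf5 (adjusted p = 0.0194) and Steap2 (0.0251). Over 20 alternatives the named genes kept their direction in all 879 values and their call in 518. The named genes were chosen with 1 sign in 4 of 4 sham rats, so leaving out a rat could not turn their direction. Several other settings left the difference itself unchanged, so the kept direction is little support. Bri3, Ccl2, Efna1, Egr1, Junb and Rab20 passed in 19 of 20, with adjusted p up to 0.174, while Psmb2 passed in 4 of 20 and Selp in 4 of 19. Unless given above, the cause of a changed count was not tested. Dim probe sets limit Selp, Has2 and the left values of Ccl7, Fosb, Nfkbiz and Il6.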

Other observations

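Zinc finger genes of the Zfp series, a large group that consists mostly of DNA-binding repressors, leaned lower on the ligated side. They were looked at after their values were seen, so no test is given. Of 224 measured genes whose symbol starts with Zfp, 167 were lower on the right, which is 74.55% against 60.93% of all genes, and their median difference was -0.08 against -0.02. None rose and 5 fell, which is 3.788% of the 132 fallen genes, while 1.576% of all genes carry such a symbol. The fallen genes were Zfp709, by 0.87 ± 0.20, Zfp111, by 0.72 ± 0.17, Zfp799, by 0.71 ± 0.14, Zfp800, by 0.66 ± 0.15, and Zfp638, by 0.24 ± 0.06 (log2 ± SE, limma adjusted p between 0.0226 and 0.044). None of the 5 passed without rat 17, where adjusted p lay between 0.061 and 0.218. Without that rat 152 of the 224 were lower and the median was -0.04. The median was -0.19 in rat 17, -0.07 in rat 11, -0.03 in rat 13 and -0.01 in rat 15. In SNX rats 155 of them were lower, which is 69.2% against 55.17% of all genes.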
